A study of Mus musculus with 11 samples.

Results

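The 10 genes described here encode the proteins that carry a cell through the G1 phase of its cycle, and they were taken by name from the 26061 genes of the deposited table. They are the D-type cyclins Ccnd1, Ccnd2 and Ccnd3, the cyclin-dependent kinases Cdk4, Cdk6 and Cdk2, the kinase inhibitors Cdkn1b (p27), Cdkn2c (p18) and Cdkn2d (p19), and Rb1, the retinoblastoma gene. The genes were chosen by name and by no cut on a measured value, but with earlier results of these data known. All 10 passed the filter on low values and were tested among 12486 genes.

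Growth signals raise the D-type cyclins, which bind and activate CDK4 and CDK6. These kinases phosphorylate the Rb protein, which then lets go of the E2F transcription factors, and CDK2 with cyclin E completes the passage into S phase. Inhibitors of the INK4 family, p15, p16, p18 and p19, bind CDK4 and CDK6, while p21, p27 and p57 act on complexes of CDK2. In macrophages, the family of cells to which microglia belong, LPS is known to halt growth driven by growth factors, and a loss of cyclin D1 is part of what is known of that arrest.

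RNA came from BV2, a mouse microglial cell line immortalised with a retrovirus carrying the raf and myc oncogenes, which limits it as a model of a microglial cell at rest. All cells were transfected with lipofection, either with an siRNA of no target (siScr, here control siRNA) or with siRNAs against Tet2 (siTet2), the gene of an enzyme that oxidises 5-methylcytosine. From 48 h after transfection they were left untreated or given LPS (lipopolysaccharide of bacterial walls, which activates Toll-like receptor 4) at 1 µg/ml for 3 h, in medium with 5% in place of 10% serum. The labels do not say separately whether untreated cells also had the change of serum. If they had not, LPS and the change of serum cannot be told apart in the LPS differences below. The control siRNA groups had 3 libraries each, untreated and with LPS, and the Tet2 siRNA groups 3 untreated and 2 with LPS, numbered 2 and 3. Nothing in the labels says that replicates were separate cultures, so p-values measure only the spread between these libraries.

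The libraries held 8739716 to 23030426 reads on genes, with a median of 18844761. Replicate 3 of the untreated control siRNA cells stood apart: with 8764031 reads it detected 16406 genes, where each of the other 10 libraries detected 12866 to 14180. A read was found there for 17 of 23 markers of astrocytes, neurons, oligodendrocytes, fibroblasts and endothelial cells, against 4 to 10 in the others. Their summed normalised reads were 4188, against 2259 to 4751 in the others, but this sum does not show how the low markers differed. Most of that sum is Kdr, an endothelial receptor gene with 3998 to 4678 normalised reads untreated and 3181 to 4057 after LPS with control siRNA, and 3089 to 4271 and 2219 to 2443 with Tet2 siRNA. The other 3 endothelial markers had at most 10.5. Mog, Olig2 and Dcn were at 0 in every library, but 2 of the 5 oligodendrocyte markers had a read in every one. The summed neuron and fibroblast markers reached 36.9 and 40.4 in untreated control siRNA cells, and at most 11.2 and 1.03 in the other groups. Those of astrocytes reached 19.3, against at most 9.26 in the other groups. All 11 microglial and macrophage markers in the table, among them Aif1, Csf1r and Trem2, had reads in every library. Tet2, the targeted gene, had 1988, 2399 and 1827 normalised reads in untreated control siRNA cells and 1453, 1988 and 1662 in untreated Tet2 siRNA cells. After LPS it had 10405, 16792 and 14762 with control siRNA and 7969 and 9238 with Tet2 siRNA. The Tet2 difference between siRNAs was -0.28 (SE 0.20, limma adjusted p = 0.566) untreated, with groups that overlapped, and -0.67 (SE 0.22, adjusted p = 0.165) after LPS, with groups that did not. Groups are therefore called by their labels, and a lowered Tet2 did not pass the test in either pair.

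Values are normalised reads, the reads of a gene divided by the depth factor of its library, and levels of different genes are compared per kilobase of transcript. In untreated control siRNA cells Cdk4 was highest at 881 ± 118 normalised reads per kilobase (SD, n = 3), followed by Ccnd2 at 722 ± 223, Ccnd1 at 466 ± 213 and Ccnd3 at 312 ± 80.6. Rb1 followed at 221 ± 47.1, Cdk2 at 191 ± 37.8 and Cdk6 at 115 ± 11.7, and the inhibitors were lowest, with Cdkn1b at 75.8 ± 24.7, Cdkn2c at 34.3 ± 5.38 and Cdkn2d at 9.91 ± 4.25 per kilobase. From Cdk4 down to Cdk2, each gene's range over the 3 libraries overlapped that of the next, so the order among neighbours there was not larger than the spread. From Cdk2 down to Cdkn2d, neighbouring ranges did not overlap at the lengths used. Cdkn1b and Cdkn2c were divided by 2393 and 1788 bases, where their longest transcripts have 4552 and 2471. The order at other lengths was not worked out. Before division Cdk6, of 11525 bases, had a mean of 1330 normalised reads, against 444 for Cdk2. After LPS in control siRNA cells the order per kilobase changed in the middle: Ccnd1, at 134 ± 44.2 (SD, n = 3), stood below Ccnd3 at 267 ± 5.54, Cdk6 at 234 ± 6.26 and Rb1 at 176 ± 13.0. Its range overlapped those of Rb1 and Cdk2, its neighbours in that order, while Cdk4 at 754 ± 76.0 and Ccnd2 at 489 ± 44.4 lay apart from each other and from all below them. Cdk4 was also the highest per kilobase in Tet2 siRNA cells, at 1194 ± 203 untreated (SD, n = 3) and 1298 ± 93.1 after LPS (SD, n = 2).

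**Figure D1:**
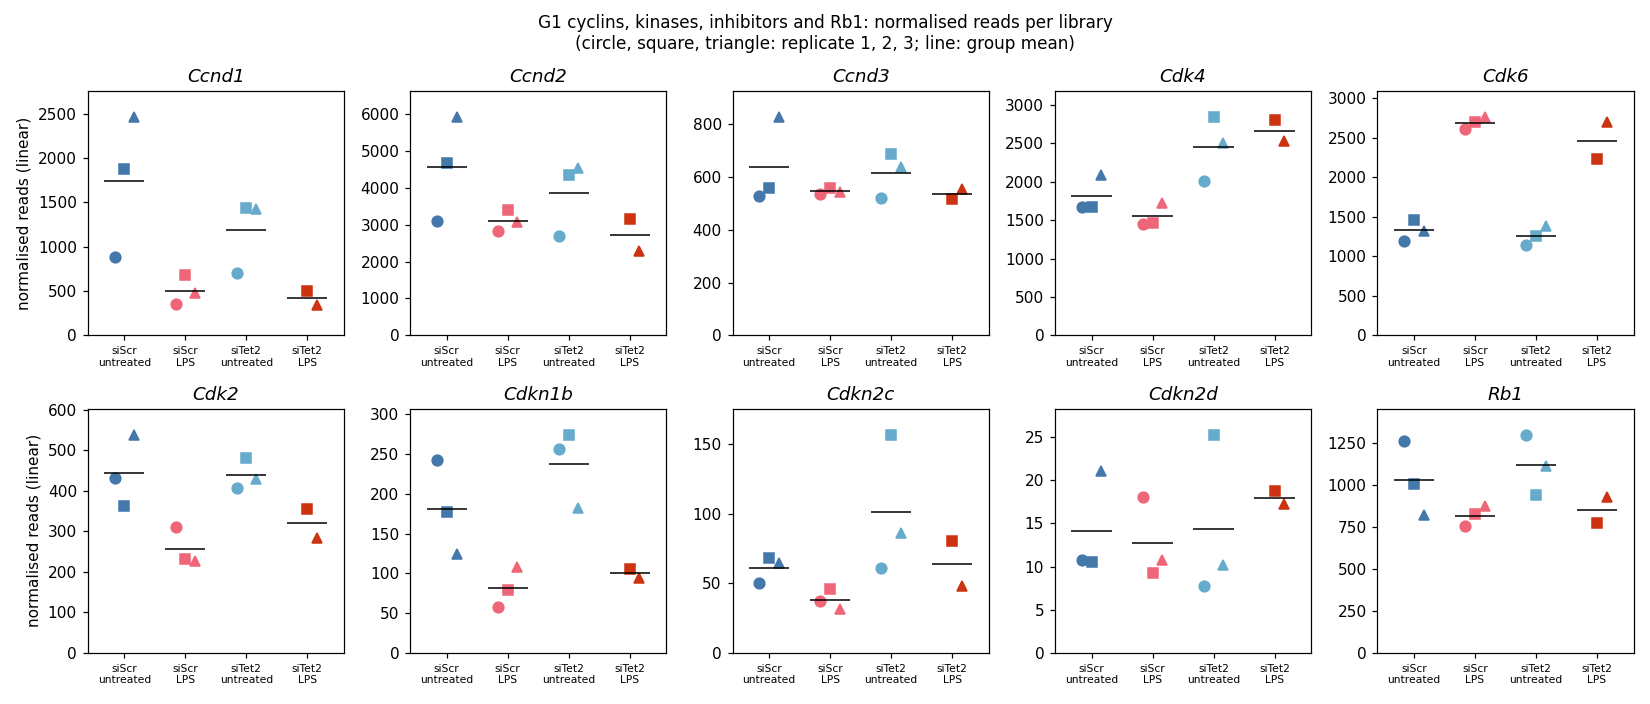
Normalised reads (linear scale from 0) of the 10 genes in each of the 11 libraries, by group; circles, squares and triangles are replicates 1, 2 and 3 and lines are group means. Cdk6 lies between 2236 and 2763 in every LPS-treated library and between 1148 and 1467 in every untreated one, and Ccnd1 lies at 678 or below in every LPS-treated library and at 702 or above in every untreated one.

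After LPS, control siRNA cells held less Ccnd1, Cdk2 and Cdkn1b RNA and more Cdk6 RNA. Thus 1 of the 10 genes rose and 3 fell, where 13.2% of all genes tested rose and 10.4% fell (limma, adjusted p under 0.05). In Tet2 siRNA cells Cdk6 rose and Ccnd1 and Cdkn1b fell, where 7.14% of all genes rose and 4.77% fell. The LPS-treated and untreated groups did not overlap for 5 of the 10 genes in control siRNA cells, the 4 called and Cdkn2c, against 37.5% of all genes. They did not overlap for 5 in Tet2 siRNA cells either, the 3 called with Cdk2 and Rb1, against 43.2% of all genes. The share that rose was near that of all genes in both, and the share that fell was 3 and 2 of only 10 genes. The median LPS difference of the 10 was -0.37 in control siRNA cells and -0.40 in Tet2 siRNA cells, on the log2 scale of the deposited values, against -0.020 and -0.0014 over all genes. These are bulk libraries, in which fewer cells expressing a gene and less of its RNA per cell cannot be told apart.

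**Figure D2:**
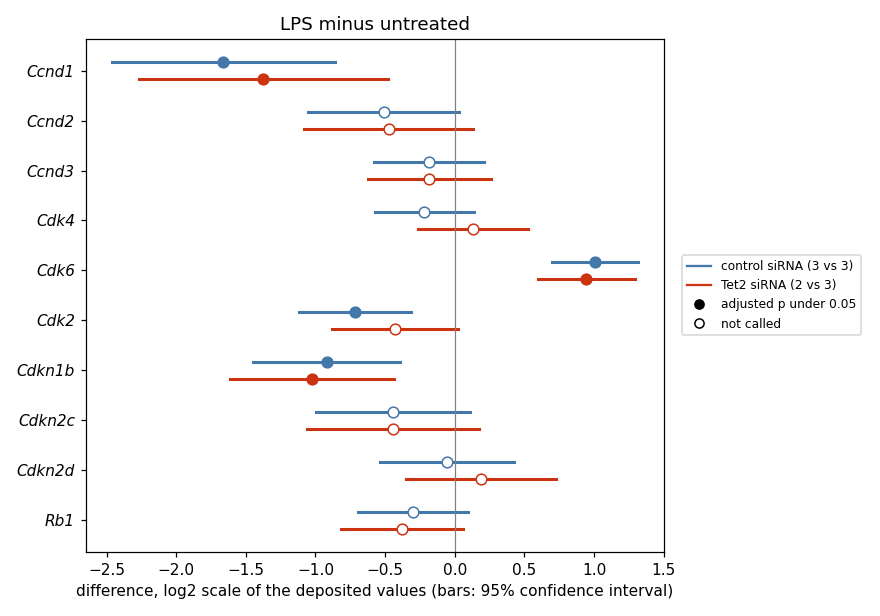
Differences between LPS-treated and untreated cells for the 10 genes, on the log2 scale of the deposited values, with 95% confidence intervals from limma, in control siRNA cells (blue, 3 libraries against 3) and Tet2 siRNA cells (red, 2 against 3); filled points passed an adjusted p of 0.05. The interval of Cdk6 runs from 0.70 to 1.32 in control siRNA cells and from 0.60 to 1.29 in Tet2 siRNA cells, while every other filled point lies below 0.

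The promoters of the 3 called genes that had an entry in the RefSeq promoter table (build GRCm38.p6, 250 bases before to 50 after the start) and of Cdk4 are shown to let the letters near the start of genes that rose or fell with LPS, or differed most with Tet2 siRNA after LPS, be compared. Entries were found for 7 of the 10 genes, and Ccnd1, Ccnd2 and Rb1 had none. Capitals mark matches, on either strand, to the E-box CACGTG or the Sp1 box GGGCGG. The Cdk6 window is chr5:3343643-3343942 on the plus strand, Cdkn1b chr6:134920151-134920450 (plus), Cdk2 chr10:128705002-128705301 (minus) and Cdk4 chr10:127063285-127063584 (plus).
Cdk6: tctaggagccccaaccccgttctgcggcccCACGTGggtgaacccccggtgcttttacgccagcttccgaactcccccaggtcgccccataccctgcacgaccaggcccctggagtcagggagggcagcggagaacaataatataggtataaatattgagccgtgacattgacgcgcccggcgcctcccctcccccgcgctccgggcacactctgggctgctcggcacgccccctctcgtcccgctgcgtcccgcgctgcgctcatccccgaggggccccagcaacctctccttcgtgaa
Cdkn1b: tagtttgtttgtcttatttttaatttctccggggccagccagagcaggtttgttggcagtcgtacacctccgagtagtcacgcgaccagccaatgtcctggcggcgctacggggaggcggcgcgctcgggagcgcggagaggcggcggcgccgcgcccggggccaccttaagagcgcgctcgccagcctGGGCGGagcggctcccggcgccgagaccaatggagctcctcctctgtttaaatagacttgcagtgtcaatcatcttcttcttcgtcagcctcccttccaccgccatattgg
Cdk2: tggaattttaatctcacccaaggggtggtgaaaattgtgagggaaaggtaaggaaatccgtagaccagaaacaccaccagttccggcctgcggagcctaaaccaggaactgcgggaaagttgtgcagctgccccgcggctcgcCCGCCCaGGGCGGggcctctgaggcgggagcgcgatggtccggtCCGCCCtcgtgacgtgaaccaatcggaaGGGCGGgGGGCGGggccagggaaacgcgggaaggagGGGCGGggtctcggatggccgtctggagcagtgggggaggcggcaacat
Cdk4: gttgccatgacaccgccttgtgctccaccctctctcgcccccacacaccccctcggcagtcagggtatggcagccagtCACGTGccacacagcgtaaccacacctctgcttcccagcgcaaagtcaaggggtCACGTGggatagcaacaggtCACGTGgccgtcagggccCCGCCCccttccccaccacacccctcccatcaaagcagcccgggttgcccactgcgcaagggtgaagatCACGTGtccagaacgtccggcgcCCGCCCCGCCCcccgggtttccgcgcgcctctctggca
The Cdk6 window held 1 E-box and no Sp1 box, that of Cdkn1b 1 Sp1 box, that of Cdk2 6 Sp1 boxes and that of Cdk4 4 E-boxes and 3 Sp1 boxes. Among all 32851 promoters of the table, 7.15% held the E-box and 35.7% the Sp1 box. There were 8 promoters with at least 4 E-boxes, 0.0244% of the table, while 5.49% held at least 4 Sp1 boxes. The other motifs searched had no match in these 4 windows: the E2F sites TTTCGCGC (0.323% of all promoters) and TTTGGCGC (0.514%), the CRE TGACGTCA (1.79%), the AP-1 site TGANTCA (7.81%) and the NF-kB consensus (8.46%). Genes that were not called held such matches too. The Cdkn2d window held 5 Sp1 boxes and 1 match to the NF-kB consensus. Of the Cdkn2c windows, 1 held 4 Sp1 boxes and the other 1 E-box, and each Ccnd3 window held 2 Sp1 boxes. A match is a run of letters and not a measured binding site, and no link between matches and changes was tested.

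Ccnd1, the cyclin that responds most directly to growth factors, gave the largest decrease among the 10. It had 887, 1879 and 2463 normalised reads in untreated control siRNA cells and 350, 678 and 480 after LPS. Every LPS-treated library lay below every untreated one, and the mean after LPS was 28.8% of the untreated mean. The difference was -1.66 on the log2 scale (SE 0.37, limma adjusted p = 0.00523), and it was -1.36 (adjusted p = 0.0276) without replicate 3 of the untreated cells. The call ended without that library and replicate 1 of the LPS-treated cells together (-1.14, adjusted p = 0.0873). With Tet2 siRNA, Ccnd1 had 702, 1438 and 1431 normalised reads untreated and 502 and 346 after LPS, again with no overlap, and the mean after LPS was 35.6% of the untreated one. That difference was -1.37 (SE 0.41, limma adjusted p = 0.0478), close to the threshold. It passed in 10 of 22 alternative settings, and the call ended without any 1 of 7 libraries. These were, with control siRNA, untreated replicate 2 and LPS replicates 1 and 3, and with Tet2 siRNA, untreated replicates 2 and 3 and both LPS replicates (differences from -1.62 to -1.12, limma adjusted p from 0.0502 to 0.334).

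Ccnd2 and Ccnd3, which share the partners of cyclin D1, did not pass the test in either LPS comparison. Ccnd2 had 3103, 4685 and 5917 normalised reads in untreated control siRNA cells and 2830, 3390 and 3073 after LPS, so that 1 untreated library lay inside the LPS range. Its difference was -0.51 (SE 0.25, limma adjusted p = 0.169) with control siRNA and -0.48 (SE 0.28, adjusted p = 0.384) with Tet2 siRNA, where it had 2681, 4345 and 4533 untreated and 3164 and 2287 after LPS. In control siRNA cells Ccnd2 passed without replicate 1 of the untreated cells (-0.76, limma adjusted p = 0.0436) and after quantile normalisation (-0.84, adjusted p = 0.0371). The libraries ranked alike for Ccnd1 and Ccnd2 within untreated control siRNA cells, replicate 1 lowest and replicate 3 highest in both. Ccnd3 was the steadiest of the D cyclins, with 527, 560 and 827 normalised reads in untreated control siRNA cells and 537, 559 and 543 after LPS. With Tet2 siRNA, Ccnd3 had 522, 687 and 638 untreated and 516 and 555 after LPS. Its LPS differences were -0.19 (95% interval -0.58 to 0.21) with control siRNA and -0.18 (-0.62 to 0.26) with Tet2 siRNA, so that a change of either sign lies within these intervals.

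As shares of the summed D cyclin reads per kilobase, Ccnd1 made up 30.1% ± 5.18 (SD, n = 3) of the total in untreated control siRNA cells and 14.8% ± 3.34 (SD, n = 3) after LPS. Ccnd2 made up 48.5% ± 1.53 and 55.0% ± 0.812, and Ccnd3 21.5% ± 4.18 and 30.2% ± 2.54, in the same groups. With Tet2 siRNA the Ccnd1 share was 25.4% ± 3.21 (SD, n = 3) untreated and 13.9% ± 1.69 (SD, n = 2) after LPS. The lowest untreated share of Ccnd1 in any library was 21.7% and the highest after LPS was 18.3%, so that the ranges lay apart under both siRNAs. Cdk6 made up 11.7% ± 1.71 of the Cdk4 and Cdk6 reads per kilobase in untreated control siRNA cells and 23.8% ± 1.38 after LPS (SD, n = 3 each). With Tet2 siRNA it made up 8.51% ± 1.04 (SD, n = 3) and 14.2% ± 2.48 (SD, n = 2). Without division by length, Cdk6 made up 42.5% and 63.6% with control siRNA and 34.2% and 48.0% with Tet2 siRNA, so that the level of these shares depends on the lengths and their direction with LPS does not. Shares were not tested, and they restate the same reads.

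**Figure D3:**
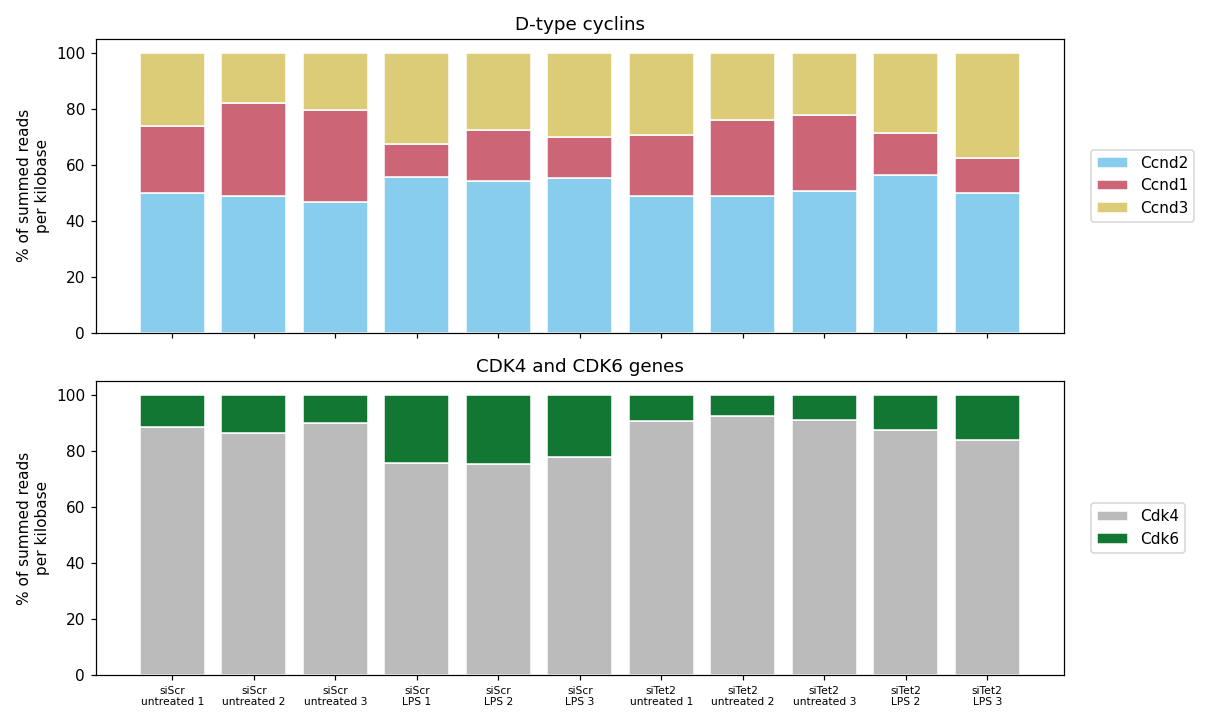
Share of the summed reads per kilobase in each of the 11 libraries, in percent, for the 3 D-type cyclins (above) and for Cdk4 and Cdk6 (below); each bar is 1 library and its colours add up to 100%. The Ccnd1 part lies between 11.6% and 18.3% in the 5 LPS-treated libraries and between 21.7% and 33.1% in the 6 untreated ones.

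Cdk6, the partner of D cyclins that is prominent in blood cells, was the gene of the 10 that rose. It had 1199, 1467 and 1325 normalised reads in untreated control siRNA cells and 2620, 2704 and 2763 after LPS, and the mean after LPS was 203% of the untreated one. With Tet2 siRNA it had 1148, 1258 and 1385 untreated and 2236 and 2696 after LPS, 195% of the untreated mean. No treated library overlapped an untreated one. The difference was 1.01 (SE 0.14, limma adjusted p = 0.00019) with control siRNA and 0.95 (SE 0.16, adjusted p = 0.00133) with Tet2 siRNA. Both calls stood in all 22 alternative settings, at differences from 0.78 to 1.08 and from 0.81 to 1.08. Cdk4, the other partner of the D cyclins, had 1668, 1672 and 2089 normalised reads in untreated control siRNA cells and 1449, 1466 and 1727 after LPS, with overlapping ranges. Its LPS difference was -0.22 (SE 0.16, limma adjusted p = 0.383), and 0.13 (SE 0.18, adjusted p = 0.799) with Tet2 siRNA.

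Cdk2, the kinase that acts with cyclins E and A, had 430, 363 and 538 normalised reads in untreated control siRNA cells and 312, 231 and 228 after LPS. All 3 treated libraries lay below the untreated ones, and the mean after LPS was 57.9% of the untreated one. The difference was -0.72 (SE 0.19, limma adjusted p = 0.0134), and -0.58 (adjusted p = 0.0423) without replicate 3 of the untreated cells. The call ended without replicate 2 or without replicate 3 of the LPS-treated cells (-0.66 and -0.65, limma adjusted p = 0.0545 each). With Tet2 siRNA, Cdk2 had 407, 479 and 429 normalised reads untreated and 355 and 284 after LPS. These did not overlap either, but the difference of -0.43 (SE 0.21) did not pass (limma adjusted p = 0.264), and it differed from that in control siRNA cells by 0.29 (95% interval -0.31 to 0.90).

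The inhibitor p27, which restrains CDK2 and is lowered when cells enter the cycle, fell at the RNA level under both siRNAs. Its gene Cdkn1b had 243, 177 and 125 normalised reads in untreated control siRNA cells and 57.4, 79.2 and 108 after LPS. The highest treated library lay just below the lowest untreated one, and the mean after LPS was 44.9% of the untreated one. The difference was -0.92 (SE 0.24, limma adjusted p = 0.015), and -1.12 (adjusted p = 0.00584) without replicate 3 of the untreated cells. Without replicate 1 of the untreated cells it was -0.72 and without replicate 1 of the LPS-treated ones -0.75, and neither passed (limma adjusted p = 0.0652 and 0.0593). With Tet2 siRNA, Cdkn1b had 257, 274 and 182 normalised reads untreated and 106 and 94.5 after LPS, 42.2% of the untreated mean, and the difference was -1.03 (SE 0.27, limma adjusted p = 0.0252). That call ended without replicate 1 or replicate 2 of the untreated or without either of the LPS-treated Tet2 siRNA libraries (differences from -1.09 to -0.92, limma adjusted p from 0.0759 to 0.184).

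The INK4 genes among the 10 were low and did not pass in any comparison. Cdkn2c had 50.4, 68.5 and 65.0 normalised reads in untreated control siRNA cells and 37.1, 46.3 and 31.4 after LPS, without overlap, at a difference of -0.44 (SE 0.26, limma adjusted p = 0.243). With Tet2 siRNA it had 61.2, 157 and 86.2 untreated and 80.2 and 48.3 after LPS, with an LPS difference of -0.44 (SE 0.29, adjusted p = 0.441). Cdkn2d lay between 7.75 and 25.2 normalised reads in all 11 libraries, from 9 to 24 reads each, and its LPS differences of -0.057 and 0.19 had 95% intervals of -0.54 to 0.42 and -0.35 to 0.73. A change of either sign lies within those intervals, and at so few reads the log2 scale understates changes. In replicate 1 of control siRNA cells, for example, 10.7 normalised reads untreated and 18.0 after LPS differ by 0.31 on that scale. Rb1 had 1261, 1005 and 824 normalised reads in untreated control siRNA cells and 756, 826 and 876 after LPS, with overlap, and a difference of -0.30 (SE 0.18, limma adjusted p = 0.267). With Tet2 siRNA it had 1300, 941 and 1114 untreated and 772 and 928 after LPS, at -0.38 (SE 0.20, adjusted p = 0.324), without overlap. Replicate 3 of the untreated control siRNA cells, the highest of all libraries in the 3 D cyclins and Cdk2, was the lowest of its group in Rb1 and Cdkn1b.

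None of the 10 genes passed the test for Tet2 siRNA. In untreated cells 0 of 10 were called, where 0.00801% of all genes tested, a single gene, were, and in LPS-treated cells 0 of 10, where 0% of all genes were (limma, adjusted p under 0.05). At an unadjusted p under 0.05, 1 member in each, Cdk4, and 1354 and 2131 of all genes stood below that value. Untreated, 0 of the 10 genes had groups that did not overlap, against 17.6% of all genes, and after LPS 2 had, Cdk4 and Cdkn2c, against 38.9%. The median difference of the 10 was -0.0099 untreated and 0.14 after LPS, against -0.025 and -0.024 over all genes.

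**Figure D4:**
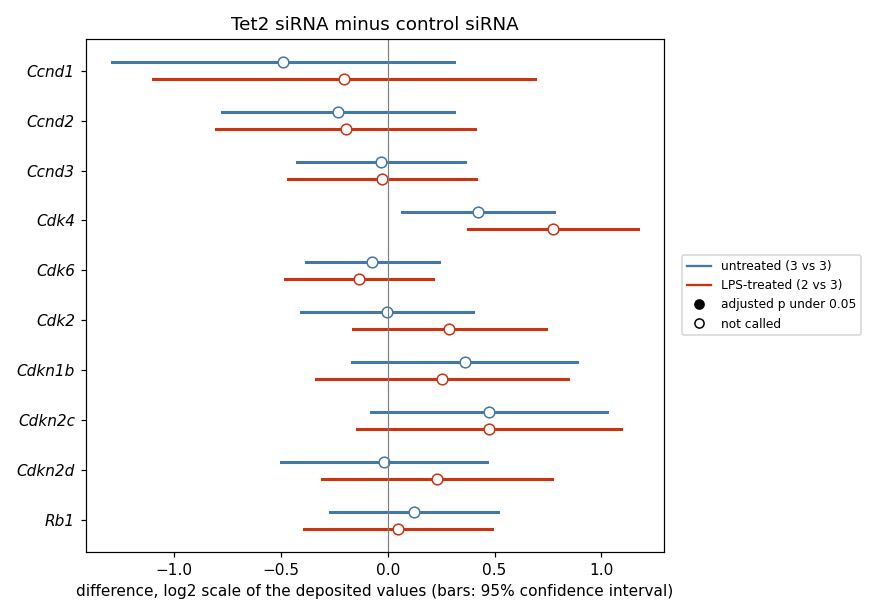
Differences between Tet2 siRNA and control siRNA cells for the 10 genes, on the log2 scale of the deposited values, with 95% confidence intervals from limma, untreated (blue, 3 libraries against 3) and after LPS (red, 2 against 3); no point passed an adjusted p of 0.05, so all are open. The intervals of Cdk4, 0.069 to 0.78 untreated and 0.38 to 1.17 after LPS, are the ones that do not include 0.

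Cdk4 gave the largest difference of the 10 after LPS, while untreated those of Ccnd1 and Cdkn2c were larger. It had 2012, 2840 and 2499 normalised reads in untreated Tet2 siRNA cells, against 1668, 1672 and 2089 with control siRNA, where 1 library of each group lay inside the range of the other. After LPS it had 2799 and 2529 with Tet2 siRNA against 1449, 1466 and 1727, with no overlap and a mean of 172% of the control mean. The difference was 0.42 (SE 0.16, limma adjusted p = 0.413) untreated and 0.77 (SE 0.18, unadjusted p = 0.00106, adjusted p = 0.122) after LPS. After LPS it lay between 0.70 and 0.85 in the 22 alternative settings and passed in none, while untreated it passed with library weights (0.55, limma adjusted p = 0.00636). Exons of Cdk4 share 641 bases with Tspan31 on the opposite strand, and whether reads were counted by strand is not given in the sources used here. Tspan31 had group means of 914 and 853 normalised reads with control siRNA, untreated and after LPS, and of 649 and 676 with Tet2 siRNA.

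For the other genes, the Tet2 siRNA differences were smaller or the groups wide. Cdkn2c differed by 0.47 (95% interval -0.079 to 1.03) untreated and 0.48 (-0.14 to 1.09) after LPS, where its values of 80.2 and 48.3 lay above 31.4 to 46.3 with control siRNA. Cdkn1b differed by 0.36 (SE 0.24) and 0.25 (SE 0.27), Ccnd1 by -0.49 (SE 0.37) and -0.20 (SE 0.41), and Ccnd2 by -0.23 (SE 0.25) and -0.20 (SE 0.28), untreated and after LPS. Cdk2 differed by -0.0032 (SE 0.19) and 0.29 (SE 0.21), and Cdkn2d by -0.017 (SE 0.22) and 0.23 (SE 0.25). Ccnd3, Cdk6 and Rb1 differed by -0.13 to 0.12 in either, with overlapping groups. The summed reads of the 11 microglial markers moved with the siRNA: normalised, they came to 67399 to 82004 untreated and 67137 to 79816 after LPS with control siRNA, and to 39338 to 58472 and 38398 to 53135 with Tet2 siRNA. Of these markers 10 untreated and 11 after LPS were lower with Tet2 siRNA, with medians of -0.67 and -0.73, none passed the test, and their part and that of Kdr in the differences above was not tested.

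The LPS responses under control and Tet2 siRNA were compared by an interaction term, to ask whether Tet2 siRNA altered them. No member and 0% of all genes passed (limma, adjusted p = 0.9997 for each of the 10), and 281 genes but 0 of the 10 had an unadjusted p under 0.05. The differences between responses ran from -0.11 for Cdkn1b to 0.35 for Cdk4, with a median of 0.020 for the 10 and -0.0040 for all genes. Their 95% intervals were wide, from -0.91 to 1.49 for Ccnd1 and from -0.53 to 0.40 for Cdk6, so a difference of some size was not detectable with these libraries. Of the pathway lists no gene passed either, and the smallest p of each list belonged to Ccne2 (0.95), Tfdp1 (0.66), Ccna2 (0.66), Cul1 (-0.45) and Foxo3 (0.58, the one with an unadjusted p under 0.05). The LPS comparison of Tet2 siRNA cells and the siRNA comparison of LPS-treated cells share libraries, so their values are not independent.

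Among the partners of these genes, the inhibitor genes Cdkn1a and Cdkn2b rose most. Of 12 such partners, which hold the cyclin E genes, the other inhibitors, the Rb relatives and the kinase that activates CDKs, 3 rose and 1 fell with LPS in control siRNA cells (all genes: 13.2% and 10.4%), and 2 rose and 1 fell in Tet2 siRNA cells (all genes: 7.14% and 4.77%). Cdkn1a (p21, which binds CDK2) had 413, 360 and 1063 normalised reads untreated and 3495, 4479 and 3229 after LPS with control siRNA, a rise of 2.70 (SE 0.37, limma adjusted p = 0.000141). With Tet2 siRNA it had 569, 319 and 360 untreated and 1396 and 2921 after LPS, a rise of 2.24 (SE 0.41, adjusted p = 0.00249). Cdkn2b (p15, an INK4 inhibitor) had 57.0, 58.0 and 65.0 normalised reads untreated and 407, 263 and 234 after LPS, a rise of 1.86 (SE 0.26, limma adjusted p = 0.000181). With Tet2 siRNA it rose by 1.27 (SE 0.29, adjusted p = 0.0116). With Tet2 siRNA these calls were lost when LPS replicate 3 was left out, for Cdkn1a (1.71, limma adjusted p = 0.0604) and Cdkn2b (0.82, adjusted p = 0.22). Rbl2, the Rb relative p130, fell by 0.90 with control siRNA (SE 0.17, limma adjusted p = 0.00168) and by 1.05 with Tet2 siRNA (SE 0.19, adjusted p = 0.00206), and Cdkn2a (p16 and p19ARF) and Cdkn1c (p57) did not pass, at -0.036 and -0.072 and at -0.075 and 0.17. The list's medians were -0.055 and 0.15. So p27 RNA fell while p21 and p15 RNA rose in the same libraries.

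Of 9 E2F and DP factors measured, 4 fell with LPS in control siRNA cells and 2 in Tet2 siRNA cells, and none rose, with list medians of -0.65 and -0.12; of all genes 10.4% and 4.77% fell. E2f2, an activator of S phase genes, had 208, 284 and 485 normalised reads untreated and 96.7, 71.0 and 74.5 after LPS with control siRNA, and fell by 1.62 (SE 0.26, limma adjusted p = 0.000581). It fell by 1.20 with Tet2 siRNA (SE 0.30, adjusted p = 0.017), a call that ended without replicate 2 or 3 of the untreated or either of the LPS-treated Tet2 siRNA libraries (adjusted p from 0.0546 to 0.168). Tfdp2, a dimer partner of E2F, fell under both siRNAs, at -0.65 and -1.06 (limma adjusted p = 0.0234 and 0.00398), and Tfdp1, another, by 0.79 with control siRNA (adjusted p = 0.0223). In control siRNA cells the calls of Tfdp1 and Tfdp2 ended without any 1 of 4 and of 3 libraries (limma adjusted p from 0.0535 to 0.079 and from 0.0615 to 0.0945). Of 20 E2F targets of S phase entry, only Tk1, thymidine kinase, fell in control siRNA cells (-0.96, SE 0.32, limma adjusted p = 0.0437), and the call ended without any 1 of 8 libraries (adjusted p up to 0.159). None was called in Tet2 siRNA cells, where Cdt1, a licensing factor of replication, had the smallest p (-0.40, SE 0.20, limma adjusted p = 0.265). With LPS, 19 of the 20 lay below 0 in control siRNA cells and 12 in Tet2 siRNA cells, and the medians were -0.39 and -0.070.

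**Figure D5:**
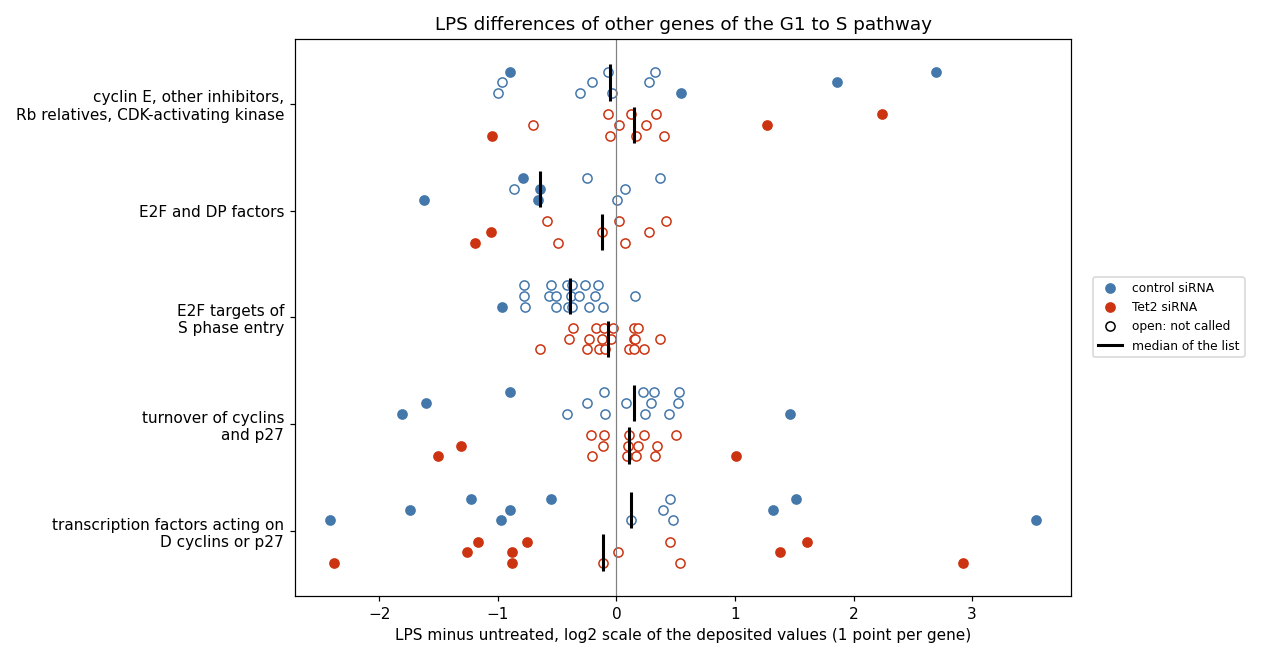
LPS differences of the other genes of the pathway, on the log2 scale of the deposited values, 1 point per gene, by list and by siRNA (blue control, red Tet2); filled points passed an adjusted p of 0.05 in limma and black bars are list medians. Cdkn1a at 2.70 and 2.24 and Myc at 3.54 and 2.93 lie farthest to the right, and Fos at -2.41 and -2.38 farthest to the left.

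Among 16 genes of the ubiquitin machinery that turns over cyclins and p27, 1 rose and 3 fell in control siRNA cells, and 1 rose and 2 fell in Tet2 siRNA cells, with medians of 0.15 and 0.10. These few calls are near the shares of all genes, of which 13.2% rose and 10.4% fell with control siRNA and 7.14% and 4.77% with Tet2 siRNA. Cul1, the scaffold of the SCF ligases, rose by 1.46 (SE 0.16, limma adjusted p = 2.19e-05) and 1.01 (SE 0.18, adjusted p = 0.00193). Its normalised reads were 3270, 3427 and 2422 untreated and 7340, 8799 and 8978 after LPS with control siRNA. Fbxo31, an F-box protein that targets cyclin D1, fell under both siRNAs, at -1.60 and -1.31 (limma adjusted p = 4.82e-05 and 0.00113), and Usp2, which removes ubiquitin from cyclin D1, fell at -1.81 and -1.50 (adjusted p = 9.03e-05 and 0.00174). Of 13 transcription factors known to act on the D cyclin or p27 genes, 3 rose and 6 fell under each siRNA, with medians of 0.12 and -0.11, where the shares of all genes were again 13.2% and 10.4%, and 7.14% and 4.77%. Myc, which can induce D cyclins and Cdk4, had 14.0, 23.1 and 22.8 normalised reads untreated and 662, 497 and 398 after LPS with control siRNA, a rise of 3.54 (SE 0.24, limma adjusted p = 2.61e-07), and it rose by 2.93 with Tet2 siRNA (adjusted p = 7.96e-06). Foxo3, an activator of Cdkn1b, fell at -1.74 and -1.17 (limma adjusted p = 7.65e-06 and 0.000974), and Ets2 rose by 1.51 and 1.61 (adjusted p = 8.95e-06 and 2.72e-05). Fos, a part of AP-1, fell at -2.41 and -2.38 (limma adjusted p = 3.41e-05 and 0.000187).

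With Tet2 siRNA no gene of these lists passed, yet 19 of the 20 E2F targets of S phase entry lay above 0 both untreated and after LPS. Their medians were 0.76 and 1.05, against -0.025 and -0.024 over all genes, and 6 and 13 of the 20 had an unadjusted limma p under 0.05, where 10.8% and 17.1% of all genes had. The libraries differed within groups: Tet2 siRNA replicate 2 was the highest of its group in all 20 genes, untreated and after LPS, and untreated Tet2 siRNA replicate 1 the lowest in all 20. In control siRNA cells, untreated and after LPS, replicate 2 was the highest in 15 and replicate 1 the lowest in 16, and the LPS-treated Tet2 siRNA group has no replicate 1. Without replicate 2 of the Tet2 siRNA cells the medians were 0.31 untreated and 0.63 after LPS, with 18 and 19 of 20 genes above 0. Without untreated control siRNA replicate 1 the untreated median was 0.49, and without untreated Tet2 siRNA replicate 1 it was 1.13. Without LPS-treated control siRNA replicate 1 the median after LPS was 0.99, with 19 of 20 genes above 0. Ccna2, the cyclin A gene, had 1484, 1220 and 1310 normalised reads in untreated control siRNA cells and 1640, 3532 and 2198 with Tet2 siRNA. After LPS it had 824, 802 and 1211 against 3535 and 1921, at a difference of 1.46 (SE 0.31, limma adjusted p = 0.122) that passed without LPS replicate 3 of the control siRNA cells (1.64, adjusted p = 0.046). Rrm1, a subunit of ribonucleotide reductase, had the smallest p of this list untreated (0.94, SE 0.33, limma adjusted p = 0.395), with 1985, 5406 and 3519 normalised reads against 1678, 2260 and 1370. All 9 E2F and DP factors also lay above 0 in both, with medians of 0.24 and 0.49. Untreated, 5 did without control siRNA replicate 1 (median 0.075), 6 without control siRNA replicate 2, and 7 and 8 without Tet2 siRNA replicates 2 (median 0.081) and 3. The median was 0.40 without untreated Tet2 siRNA replicate 1 and 0.37 without untreated control siRNA replicate 3. After LPS all 9 did without any 1 library, with a median of 0.26 without Tet2 siRNA replicate 2. The smallest p belonged to Tfdp2 untreated (0.65, limma adjusted p = 0.335) and to Tfdp1 after LPS (0.71, adjusted p = 0.193). Ccne2, of cyclin E, had the smallest p of the partners after LPS (1.31, SE 0.41, limma adjusted p = 0.148) and Rbl1, the Rb relative p107, untreated (0.93, adjusted p = 0.422). In the turnover list these were Fbxo4 untreated (0.77, limma adjusted p = 0.393) and Cks1b, a partner of SKP2, after LPS (1.08, adjusted p = 0.122, and 1.34 with adjusted p = 0.0388 without LPS replicate 3 of the control siRNA cells). Among the transcription factors they were Jun untreated (-0.46, limma adjusted p = 0.399) and Klf4 after LPS (-0.68, adjusted p = 0.132).

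Over the 11 libraries, the genes whose values ran most like those of the called members were found by Pearson's r, with no test, since all follow the same 4 groups and the same library factors. Ccnd1 was most alike to Gm5454, a processed pseudogene (r = 0.995), Tle3 (0.985) and Fam125b (0.978). Cdk6 was most alike to Daam1, Ube2f and Dcbld2 (r = 0.99 each), Cdk2 to Zfp629, Mtfp1 and Klrg2 (0.97, 0.968 and 0.961), and Cdkn1b to Zbtb1, Kdsr and Rbbp9 (0.971, 0.968 and 0.966). Overlapping exons on the opposite strand also touch Ccnd1, which shares 1100 bases with Oraov1 (group means from 188 to 253 normalised reads). Rb1 shares 408 bases with Lpar6, whose group means were 693 and 702 untreated and 161 and 205 after LPS, and 488 with Rcbtb2, and Ccnd3 shares 361 with Bysl. Ccnd3 has a copy, Ccnd3-ps, that matches it at 96.3% over 881 bases and has no row in the table, so the reads of these genes are uncertain to that extent.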

How the data were processed

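The 11 libraries were made from polyadenylated RNA with a directional kit, per the labels' protocols. Trim Galore 0.3.3, TopHat2 2.0.9, DESeq2 and the mm9 build are named in the submitters' processing notes. For the read counter, its annotation and its use of strand nothing is stated (not given in the sources used here). The authors deposited 1 table of log2-scale values after variance stabilisation, in which the lowest value, 4.02, stands for 0 reads. Inverted, 100% of its values were whole reads (tolerance 0.01), and these gave the normalised reads and the depth. On this log2 scale the changes of genes with few reads are understated.

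The deposited log2 values were fitted with limma 3.58.1 (R 4.3.3): 1 mean per group over all 11 libraries, moderated two-sided tests with a variance trend, and Benjamini-Hochberg adjustment over the 12486 genes that exceeded the lowest value by 1 log2 unit or more in 2 or more libraries. A gene is called at an adjusted p under 0.05, and an alternative that leaves 1 library in a group assumes that it varies like the others. Count models were not run. Recovered reads entered only the alternatives with voom. Lengths are those of GENCODE transcripts (GRCm38) paired with RefSeq mRNAs, and promoters come from RefSeq (GRCm38.p6). The fit was also run on simulated data, with an outcome that is not reported here and supports no statement above. The alternatives were 2 filters, 2 scalings, no variance trend, only the groups compared, a replicate block, library weights, voom on recovered reads with 2 scalings, each library left out in turn and 1 pair of libraries left out. Shares, and the signs of the E2F targets and of the E2F and DP factors with Tet2 siRNA, with each library left out were added after the data were seen.

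The members, lists, motifs and tests were chosen with earlier results of these data known. Named were all 10 members, Tet2, up to 3 called genes with the smallest p of each list in each LPS comparison, the gene with the smallest p where a list had no call, and the 3 genes most alike to each called member. Of the listed genes E2f7, Mycn and Ets1 did not pass the filter, and Kpc1 is another name of Rnf123.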

Additional observations from a re-analysis of the deposited data

How the results depend on the processing

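Of 1960 values of single genes recomputed under the alternatives, 1900 kept their side of the threshold, 49 lost a call, 11 gained one and 0 of the called ones changed sign, while 86 differed in sign without a call in either. Most of these values belong to genes not called in the main fit, which had no call to lose. Of 240 recomputed counts of genes 212 stayed within 1.5 times the count reported. Of 38 recomputed shares 7 moved by the SD between libraries or more, all of them without division by length. Shares with a library left out were not compared with that SD. The lengths of Cdk4 and Cdk6 were the same with the longest transcript, so those shares could not move. The number of members called with LPS lay between 3 and 4 in control siRNA cells and between 1 and 3 in Tet2 siRNA cells when each library was left out in turn, and all genes called between 2238 and 2956 and between 788 and 1771. With library weights, which had not converged, 5 members and 3072 genes were called for LPS in Tet2 siRNA cells, 1 member and 1143 genes for Tet2 siRNA untreated, and 13 genes for Tet2 siRNA after LPS. The 1 gene called for Tet2 siRNA untreated became 0 with no filter, with quantile normalisation, with only the groups compared, with voom on either scaling and without untreated replicate 3 and LPS replicate 1 of the control siRNA cells together, and ranged from 0 to 1 with a library left out. For Tet2 siRNA after LPS, 1 gene was called without that pair, and 0 to 120 with a library left out, the 120 with LPS replicate 3 of the control siRNA cells removed. The cause was not tested. A fit of only the groups compared was not run for the difference between LPS responses, since it is the main fit.

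Without division by length, Ccnd1 made up 24.3% and 11.9% of D cyclin reads with control siRNA, untreated and after LPS, and 20.6% and 11.4% with Tet2 siRNA. Cdk6 then made up 42.5% and 63.6% of Cdk4 and Cdk6 reads with control siRNA, untreated and after LPS, and 34.2% and 48.0% with Tet2 siRNA.

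The replicate numbers paired the libraries only in part. Deviations of same-numbered libraries correlated at -0.28 to 0.63, with a median of 0.11 against -0.027 for other pairs. They lay above 0.1 in 8 of 15 pairs, and 5 of 11 libraries correlated best with their own number. These correlations are not independent, since the deviations within a group add up to 0. In the LPS-treated Tet2 siRNA group, of 2 libraries, the deviations mirror each other, so their correlations differ only in sign. Untreated and LPS-treated replicates 2 correlated at 0.46 with control siRNA and 0.63 with Tet2 siRNA. With control siRNA, replicates 1 and 3 did so at -0.13 and -0.28. The main fit holds no replicate term. With the replicate number as a block, LPS called 3257 genes in control siRNA and 1581 in Tet2 siRNA cells and Tet2 siRNA 1 untreated and 0 after LPS. Members called stayed at 4 and 3, and Ccnd1 differed by -1.70 (SE 0.23, limma adjusted p = 0.000703) in Tet2 siRNA cells. Without the block the SE of Ccnd1 there was 0.41. In control siRNA cells it was 0.20 with the block and 0.37 without.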

Other observations

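Gm5454, the gene most alike to Ccnd1 over the 11 libraries, is annotated as a processed pseudogene, and its 1453 bases match Etv1, an ETS transcription factor, at 98.2%. Reads of the pseudogene and of Etv1 therefore cannot be told apart with certainty. This pair was looked up after its values were seen. Gm5454 had 120, 240 and 320 normalised reads in untreated control siRNA cells and 56.2, 106 and 83.4 after LPS, and 118, 196 and 186 untreated and 81.8 and 60.2 after LPS with Tet2 siRNA. Etv1 had 212, 344 and 409, then 65.2, 164 and 108 with control siRNA, and 220, 317 and 342, then 106 and 114 with Tet2 siRNA. In untreated control siRNA cells, Ccnd1, Gm5454 and Etv1 were all lowest in replicate 1 and highest in replicate 3, and in LPS-treated control siRNA cells all were lowest in replicate 1 and highest in replicate 2.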
